A study of Homo sapiens with 3 samples.

Results

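The hairpins hsa-mir-191 and hsa-mir-425 sit side by side in an intron of DALRD3, and their levels were measured in small RNA libraries of MV4-11, a line of human acute myeloid leukemia cells with the FLT3-ITD mutation and the MLL-AF4 fusion. They were found by name among the hairpins (primary transcripts) listed, where they are 2 of 661 genes, and their mature arms are 4 of 783 mature names. All 3 libraries belong to 1 group. The cells are labelled as wild type, had received an empty vector (EV), the lentiviral CRISPR-Cas9 control construct of the study, and were grown for 2 weeks before RNA was taken. There is no treated group, so the comparisons are between the members, between the arms of a hairpin, and between libraries of 3 cultures of 1 cell line.

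A microRNA is cut from its hairpin by Drosha and Dicer as a duplex of a 5p and a 3p arm, and usually one arm is loaded into Argonaute while the other is degraded. Bases 2 to 8 of the loaded arm, the seed, pair with target mRNAs. Hairpins in an intron of a coding gene can be transcribed together with that gene, and neighbours on a strand can come from a shared transcript. miR-191-5p is abundant in many cell types and is widely used as an internal reference in qPCR, as is miR-425-5p. A high level of miR-191 in acute myeloid leukemia has been associated with poor survival. DALRD3 itself takes part in the methylation of arginine tRNAs.

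In RefSeq, the hsa-mir-191 hairpin of 92 bases lies at chr3:49020618-49020709 on the minus strand of GRCh38.p14. The hairpin is shown because most of its reads came from 1 of the stretches in capitals, which are the 5p arm (first, bases 16 to 38) and the 3p arm (second, bases 58 to 79).
hsa-mir-191: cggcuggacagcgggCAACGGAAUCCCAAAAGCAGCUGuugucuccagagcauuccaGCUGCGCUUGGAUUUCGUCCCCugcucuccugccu

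The hsa-mir-425 hairpin of 87 bases lies at chr3:49020148-49020234 on the same strand, 383 bases downstream of hsa-mir-191. In GENCODE 29, 4 of the 15 DALRD3 transcripts span both hairpins, in their intron 1 and with no exon overlapping either. On the plus strand hsa-mir-191 also lies within intron 1 of 1 transcript of NDUFAF3, an assembly factor of mitochondrial complex I. The mature arms are compared below by sequence, since their ratio turned out to differ between 5p and 3p. Capitals mark the seed.
miR-191-5p: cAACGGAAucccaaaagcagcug
miR-191-3p: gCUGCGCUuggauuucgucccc
miR-425-3p: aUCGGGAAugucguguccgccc

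Of the arms, 3 matched the RefSeq table, at chr3:49020672-49020694 (miR-191-5p), chr3:49020631-49020652 (miR-191-3p) and chr3:49020159-49020180 (miR-425-3p). miR-425-5p is the other arm. None of these 3 seeds is shared with each other or with another of the 2370 human mature names in that table, so each stands alone in its seed group there. Both 3p arms have 63.6% G or C, and miR-191-5p has 52.2%.

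Depth was 12694823, 10991953 and 11682129 mature counts in replicates 1, 2 and 3. Replicate 1 stood apart from the others. miR-21-5p took 38.5% of its counts, against 26.8% and 20.2% in replicates 2 and 3, and over the 163 miRNAs that reached 1000 counts in each library the median log2 shift of FPKM from replicate 1 was 0.41 to replicate 2 and 0.52 to replicate 3. Values are therefore given per library, or with and without replicate 1. All 6 white blood cell markers were listed, with a summed 1629662 to 2826064 FPKM per library. Their means ran from 27965 FPKM for miR-146a-5p to 1100895 FPKM for miR-155-5p. Of 8 markers of other cells 7 were listed, with a summed 26799 to 95842 FPKM. Among these 7, miR-451a, of red blood cells, had the lowest mean at 71.6 FPKM. miR-124-3p, of neurons, had the highest at 55618 FPKM, above the mean of miR-146a-5p. No row had the name miR-1-3p, so the sum leaves this muscle miRNA out. Its hairpin hsa-mir-1-2 was listed, with 19.6, 9.84 and 6.53 times the FPKM of hsa-mir-133a-1 in replicates 1, 2 and 3.

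Reads of both hairpins were abundant, and hsa-mir-191 was the higher in each library. At least 99.72% of these reads fell on the mature arms, as given below. The hairpin values are therefore those arm reads over the length of the hairpin, not a separate level of the precursor. FPKM, the read count scaled for feature length and library size, of hsa-mir-191 was 241091, 446559 and 500316 in replicates 1, 2 and 3, from 279182, 448000 and 533497 counts. FPKM of hsa-mir-425 was 66159, 113274 and 113522, from 72402, 107396 and 114400 counts. The highest hsa-mir-425 value was below the lowest hsa-mir-191 value, so the members did not overlap. Means were 395989 ± 136811 FPKM for hsa-mir-191 and 97652 ± 27274 for hsa-mir-425 (SD, n = 3), which ranked 6 and 28 of 661 hairpins. Within single libraries hsa-mir-191 ranked 10, 5 and 4 and hsa-mir-425 ranked 24, 25 and 24. Without replicate 1 the means were 473437 FPKM for hsa-mir-191 and 113398 FPKM for hsa-mir-425. Counting error was far smaller than these differences. The share of hairpin counts held by hsa-mir-191 was 2.19%, 4.06% and 4.55% in replicates 1, 2 and 3, with Wilson 95% intervals of 2.19 to 2.20, 4.05 to 4.08 and 4.54 to 4.57. That of hsa-mir-425 was 0.569% (0.565 to 0.573), 0.974% (0.969 to 0.980) and 0.976% (0.971 to 0.982). These intervals cover counting error only, and the reads, which carry no molecular identifiers, include PCR copies.

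Among mature arms, miR-191-5p had 994955, 1846748 and 2069083 FPKM in replicates 1, 2 and 3, a mean of 1636928 ± 566971 (SD, n = 3) and rank 5 of 783. miR-425-5p had 239551, 412793 and 407962 FPKM, a mean of 353435 ± 98656 and rank 25. Both were lowest in replicate 1. The miRNAs next to miR-191-5p in the order were let-7f-5p and miR-30d-5p above it and miR-92a-3p and let-7i-5p below it. All 4 were within the larger SD of the pair. Within libraries, miR-191-5p was above let-7f-5p in 1 of 3, and above miR-30d-5p, miR-92a-3p and let-7i-5p in 2 of 3. Its place among them is thus not resolved, and it ranked 9, 3 and 4 in replicates 1, 2 and 3. Next to miR-425-5p were miR-25-3p and miR-101-3p above it and miR-222-3p and miR-378a-3p below it, also within the larger SD. miR-425-5p was above miR-101-3p and miR-378a-3p in 2 of 3 libraries, and above miR-25-3p and miR-222-3p in 1 of 3. The place of miR-425-5p was not resolved either. miR-222-3p, at 353351 ± 71194 FPKM (SD, n = 3), was the closest to it of all, and was the higher of the pair in 2 of 3 libraries. let-7f-5p, miR-92a-3p and miR-101-3p are each made from more than 1 hairpin, and the rows of each name were summed.

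The 3p arms were much lower. miR-425-3p had 19817, 31973 and 38031 FPKM, from 5284, 7382 and 9332 counts, with a mean of 29940 ± 9276 (SD, n = 3) and rank 94. miR-191-3p had 3972, 4717 and 5677 FPKM, from 1059, 1089 and 1393 counts, with a mean of 4788 ± 855 and rank 178. Here the order of the members was the opposite, with miR-425-3p above miR-191-3p in each library and no overlap between them.

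**Figure D1:**
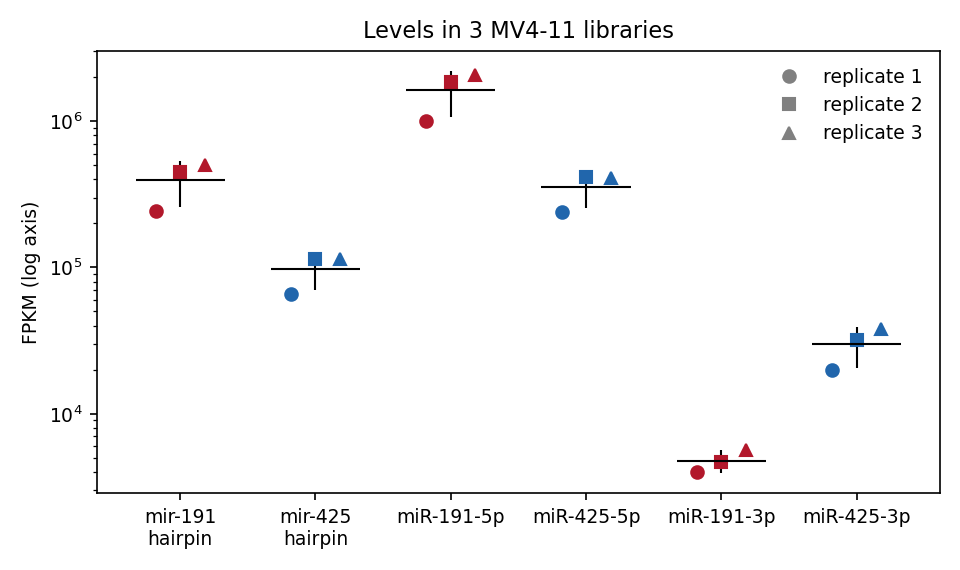
FPKM on a log axis of both hairpins and their 4 arms, with a point for each of 3 libraries, a horizontal line at the mean and a vertical line of 1 SD either way. miR-191 (red) lies above miR-425 (blue) as hairpin and as 5p arm, and below it as 3p arm, in each library. Hairpin and arm values come from nearly the same reads, scaled to different lengths, so a hairpin is not to be compared with its arm.

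The ratio of the members was formed within each library, where depth and library-wide scaling cancel. Between hairpins, FPKM of hsa-mir-191 exceeded that of hsa-mir-425 by 3.64-fold, 3.94-fold and 4.41-fold in replicates 1, 2 and 3, with a geometric mean of 3.99 and an SD of 0.14 on the log2 scale. Without replicate 1 the geometric mean was 4.17. Replicate 3 had the highest ratio and replicate 1 the lowest. In counts, hsa-mir-191 took 79.4%, 80.7% and 82.3% of the reads of both hairpins, with Wilson 95% intervals of 79.3 to 79.5, 80.6 to 80.8 and 82.2 to 82.4. The intervals did not overlap, so the libraries differed in this ratio by more than counting error.

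Split by arm, the ratio turned. Between 5p arms it was 4.15, 4.47 and 5.07 in replicates 1, 2 and 3, with a geometric mean of 4.55. Between 3p arms it was 0.200, 0.148 and 0.149, with a geometric mean of 0.164, so that miR-425-3p was the higher in 3 of 3 libraries. miR-191-3p made up 16.7%, 12.9% and 13.0% of the counts of both 3p arms (Wilson 95% intervals 15.8 to 17.6, 12.2 to 13.6 and 12.4 to 13.6). The ratio of hairpins therefore followed that of the 5p arms, which held nearly all reads. With 3 libraries, flipping the signs of the log2 ratios cannot give an exact two-sided p below 0.25, and no test was made of the turn between the arms beyond the difference given below. Adapters join some RNA ends better than others, so a ratio of reads between miRNAs need not equal the ratio of molecules, and the part of ligation here was not tested.

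**Figure D2:**
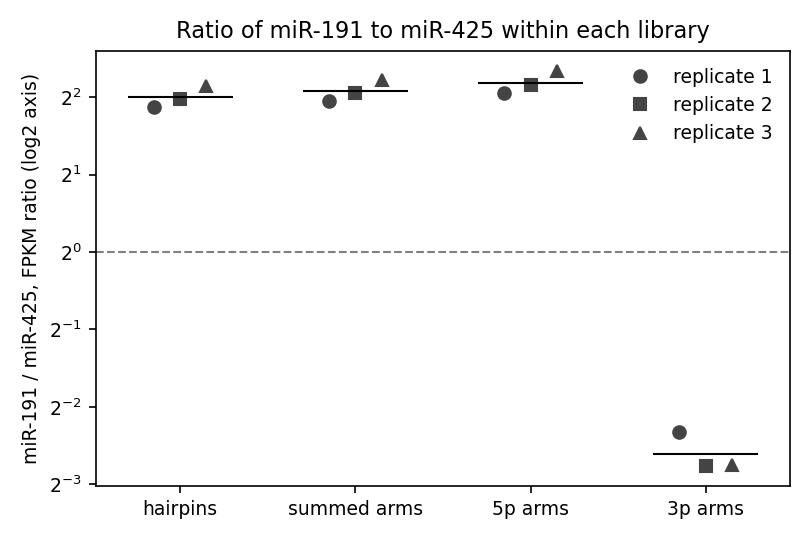
FPKM of miR-191 over that of miR-425 on a log2 axis, for the hairpins, the summed arms, the 5p arms and the 3p arms, with a point for each of 3 libraries and a line at the geometric mean. The first 3 lie between 3.64 and 5.07 and the 3p arms between 0.148 and 0.200, on the other side of the dashed line at a ratio of 1.

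The arms of each hairpin were compared to learn which was the more abundant and by how much. The ratio of miR-191-5p to miR-191-3p in FPKM was 251, 392 and 364 in replicates 1, 2 and 3. That of miR-425-5p to miR-425-3p was 12.1, 12.9 and 10.7. Both were called toward 5p by edgeR's quasi-likelihood test on counts with the library as a block, over 195 hairpins with both arms counted in every library. The log2 ratio was 8.43 ± 0.28 for hsa-mir-191 (SE, adjusted p = 7.16e-06) and 3.64 ± 0.20 for hsa-mir-425 (SE, adjusted p = 2.34e-05), each toward 5p in 3 of 3 libraries. Without replicate 1 the log2 ratios were 8.63 and 3.62. A call needed a Benjamini-Hochberg adjusted p under 0.05 and a log2 ratio of at least 1 in size, which 40.5% of hairpins met toward 5p and 41.5% toward 3p. A strong preference was thus common among the hairpins tested, whose median log2 ratio was 3.17 in size.

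The members differed in how strong the preference was. hsa-mir-191 ranked 6 of 195 from the 5p end, between hsa-mir-21 at 8.78 ± 0.32 and hsa-mir-30d at 8.14 ± 0.26 (log2 ratio ± SE), and it differed from each by less than the sum of their SEs. hsa-mir-425 ranked 47, between hsa-mir-30e at 3.65 ± 0.20 and hsa-mir-548j at 3.43 ± 0.34. The log2 FPKM ratio of 5p to 3p of hsa-mir-191 was above that of hsa-mir-425 by 4.37, 4.92 and 5.09 in replicates 1, 2 and 3, a mean difference of 4.79 ± 0.37 (SD, n = 3). The exact sign-flip p of this difference was 0.25, the smallest that 3 libraries can give. By construction it equals the log2 ratio of the members between 5p arms less that between 3p arms. It is thus the turn described above in another form, not a separate result. The 3p arm made up 0.380%, 0.243% and 0.261% of the arm counts of hsa-mir-191 (Wilson 95% intervals 0.357 to 0.403, 0.229 to 0.258 and 0.248 to 0.275). For hsa-mir-425 the 3p arm made up 7.32% (7.13 to 7.51), 6.88% (6.73 to 7.04) and 8.17% (8.01 to 8.33). Replicate 1 had the largest share of miR-191-3p and replicate 3 the largest share of miR-425-3p, and both shares were lowest in replicate 2.

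**Figure D3:**
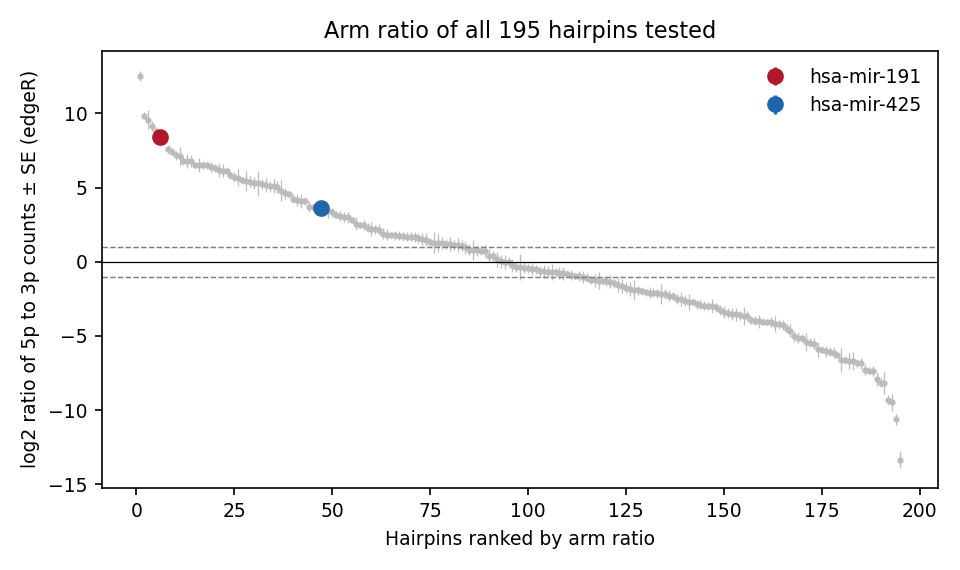
log2 ratio of 5p to 3p counts, with the SE, for 195 hairpins ranked from the strongest 5p to the strongest 3p preference. Dashed lines mark a log2 ratio of 1 in size, and hsa-mir-191 at 8.43 and hsa-mir-425 at 3.64 both lie on the 5p side.

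Nearly all reads of both hairpins fell on the listed arms. The arms held 99.93%, 99.95% and 99.96% of hsa-mir-191 counts in replicates 1, 2 and 3, and 99.72%, 99.84% and 99.83% of hsa-mir-425 counts. This left 189, 230 and 214 counts of hsa-mir-191 and 201, 170 and 195 counts of hsa-mir-425 outside the arms. The counts outside were of similar number for both, though hsa-mir-191 had the more reads. The deposited tables do not say whether they come from loops, flanks or shifted ends.

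To place the ratio of the members among other neighbours, all pairs of listed hairpins next to each other on a strand with starts within 10 kb were compared by the same test, 85 pairs in all. The upstream hairpin hsa-mir-191 was above hsa-mir-425 by 2.08 ± 0.22 on the log2 scale of counts (SE, edgeR adjusted p = 0.0015), in 3 of 3 libraries. Without replicate 1 the log2 ratio was 2.14 (edgeR adjusted p = 0.00117). The call was lost without replicate 2, where the log2 ratio was 2.08 with an edgeR adjusted p of 0.0558. Among the pairs, 32.9% were called with the upstream and 37.6% with the downstream hairpin higher, so an unequal yield of neighbours was common. The log2 ratio of the members was close to the median of 1.91 in size, and 39 pairs had a larger one.

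The ratio of the members varied between libraries by more than counting error, but less than the median of the neighbouring pairs. Its SD over 3 libraries was 0.14 on the log2 scale of FPKM ratios, place 15 from the lowest of 85 pairs, whose median SD was 0.34. Among the 34 pairs with at least 1000 counts of both hairpins in every library it was place 10, with a median of 0.29. Both sets hold pairs of numbered copies of a single miRNA, such as hsa-mir-941-1 and hsa-mir-941-2 with the lowest SD of 0.013. The places were not recomputed without such copies. For comparison, hsa-mir-106b, hsa-mir-93 and hsa-mir-25 lie in an intron of MCM7, a replication licensing factor, and form another set inside a coding gene. The FPKM ratio of hsa-mir-106b to hsa-mir-93 was 0.336, 0.226 and 0.233 in replicates 1, 2 and 3 (SD 0.32 on the log2 scale). That of hsa-mir-93 to hsa-mir-25 was 0.855, 1.64 and 1.67 (SD 0.55 on the log2 scale). In both MCM7 ratios replicate 1 stood apart from replicates 2 and 3, and whether their SDs differ from that of the members was not tested.

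**Figure D4:**
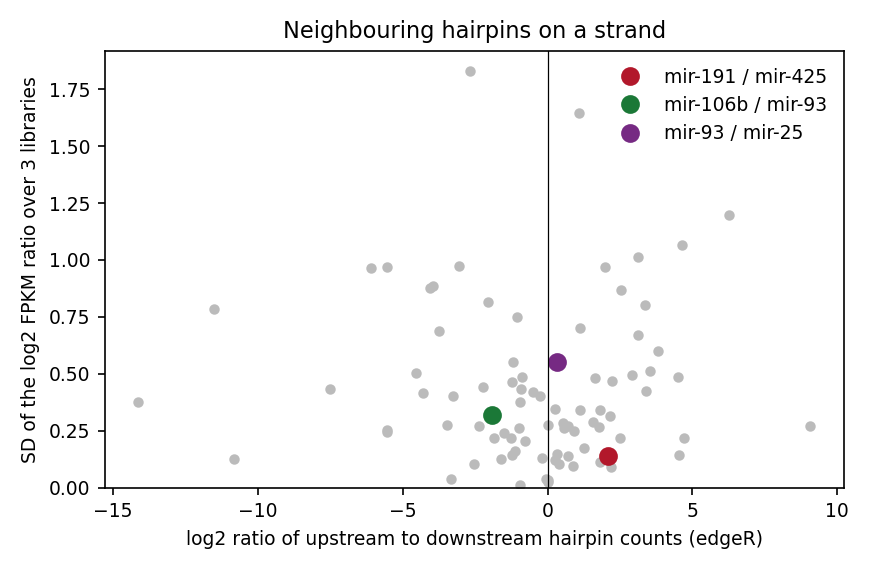
SD over 3 libraries of the log2 FPKM ratio against the log2 ratio of upstream to downstream counts, for 85 pairs of neighbouring hairpins. The pair of hsa-mir-191 and hsa-mir-425 (red) has an SD of 0.14, below the 0.32 and 0.55 of the MCM7 pairs (green and purple).

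Since both 5p arms serve as internal references, their spread between libraries was set beside that of 10 other miRNAs used so. On the deposited FPKM scale the coefficient of variation was 34.6% for miR-191-5p and 27.9% for miR-425-5p (n = 3). The median of the same 163 miRNAs was 29.1%, and 108 of them varied less than miR-191-5p and 80 less than miR-425-5p. The 10 reference miRNAs ran from 2.42% for miR-26a-5p to 61.0% for miR-93-5p, with a median of 36.4%. Of these, 5 varied more than miR-191-5p and 6 more than miR-425-5p. Counting error alone would give 0.160% for miR-191-5p and 0.339% for miR-425-5p. Without replicate 1 the values fell to 8.03% for miR-191-5p and 0.832% for miR-425-5p, against a median of 8.46%.

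The position of the members depended on how libraries were scaled. After scaling by the median of ratios the coefficient of variation was 17.5% for miR-191-5p and 10.8% for miR-425-5p, below the median of 21.7%. With TMM it was 15.2% and 9.38%, against 22.3%. On either scale all 10 reference miRNAs varied more than miR-425-5p. By the median of ratios the margin was small, with miR-92a-3p at 10.9%. By the median of ratios or TMM, 7 or 8 of the 10 varied more than miR-191-5p. Another scale, chosen after the data were seen, left the reads of miR-21-5p out of the library totals. There the coefficient of variation was 24.2% for miR-191-5p and 18.3% for miR-425-5p, against a median of 21.8%. On that scale 6 of 10 varied more than either member. Thus miR-191-5p was above the median on the deposited scale and with miR-21-5p left out and below it on the other scales, while miR-425-5p was below this median on all 4. On the deposited scale that place was not firm, since over the 330 miRNAs with at least 100 counts the median was 25.2% and 174 varied less than miR-425-5p. Without replicate 3 miR-425-5p, at 37.6%, was likewise above the median of 28.3% of the more abundant miRNAs.

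**Figure D5:**
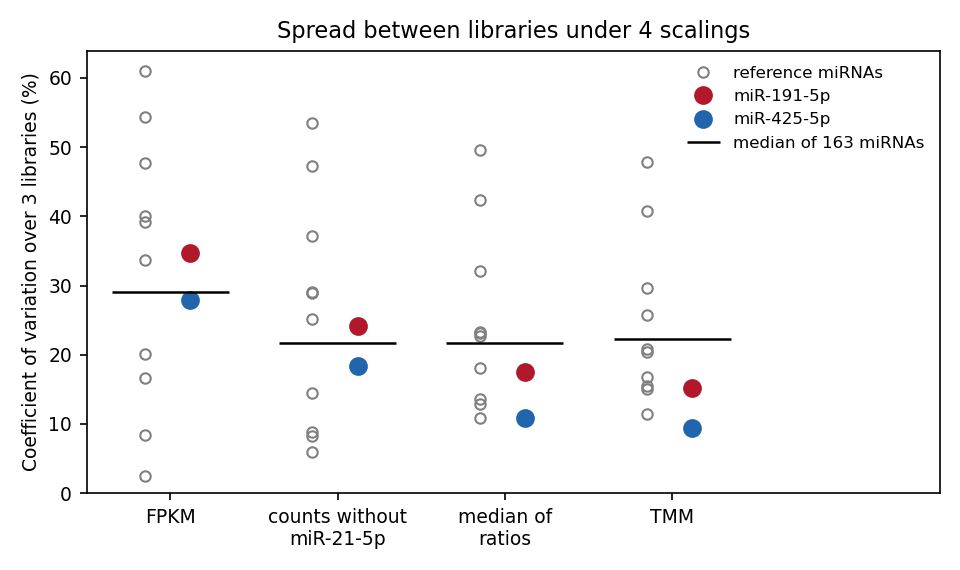
Coefficient of variation over 3 libraries, in percent, under 4 scalings, for miR-191-5p (red), miR-425-5p (blue), 10 reference miRNAs (open circles) and the median of 163 miRNAs (line). Both members lie lower after scaling by the median of ratios or TMM than on the FPKM scale, where they are at 34.6% and 27.9%.

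Relative to replicate 1, FPKM of miR-191-5p was 1.86-fold in replicate 2 and 2.08-fold in replicate 3, and that of miR-425-5p was 1.72-fold and 1.70-fold. On the log2 scale this was 0.89 and 1.06 for miR-191-5p and 0.79 and 0.77 for miR-425-5p, above the median shifts of 0.41 and 0.52 of the 163 miRNAs. miR-425-3p shifted by 0.69 and 0.94. miR-191-3p shifted by only 0.25 and 0.52, so the arms of hsa-mir-191 moved by different amounts between libraries. After scaling by the median of ratios the shifts of miR-191-5p were 0.42 and 0.49, and those of miR-191-3p were -0.22 and -0.05. This scaling moves all miRNAs of a library by an equal amount, and the median shifts themselves became -0.06 and -0.04. The sign of the shift of miR-191-3p is therefore that of the scale used, whereas the ratio of arms within a library does not depend on it.

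The pattern of each 5p arm over the 3 libraries was compared with the other miRNAs of at least 1000 counts, by the root mean square distance of log2 FPKM centred on each miRNA's mean. Closest to miR-191-5p were miR-28-5p at 0.016, miR-146a-5p at 0.020, miR-652-3p at 0.036, miR-660-5p at 0.039 and miR-378a-5p at 0.042. miR-425-5p was at 0.12 from it and in place 36, while its own other arm, miR-191-3p, was at 0.28 and in place 66. Closest to miR-425-5p were miR-200c-3p at 0.047, miR-345-5p at 0.051, miR-27a-3p at 0.054, miR-342-3p at 0.055 and miR-23b-3p at 0.063. The median distance was 0.34 from miR-191-5p and 0.31 from miR-425-5p. With 3 libraries, 1 of which stands apart, such likeness is a description only.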

How the data were processed

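Small RNA of 3 EV-infected MV4-11 cultures was sequenced on an Illumina HiSeq after New England Biolabs library preparation. The authors aligned the reads and deposited whole read counts per mature miRNA and per primary transcript (miRBase 21 annotations), not normalized. Beside the counts they deposited FPKM, which divides by feature length and library total. The submitters' processing notes name Novoalign 2.08.03, and hg19 and mm10 as builds, with no role given. The tables hold no coordinates, and those printed are from RefSeq GRCh38.p14. Every row had at least 10 counts in a library, so the tables are filtered.

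The hairpins were matched by name, and rows of 1 mature name were summed. The members and lists were chosen with earlier results of these data known. Named miRNAs are the members and their arms, the 2 neighbours on each side in level, the neighbours in arm ratio, the 5 closest patterns, reference and marker lists, and the MCM7 hairpins. Arms (195 hairpins, at least 1 count of each arm in every library) and neighbouring hairpins (85 pairs; 655 of 661 hairpins had a position in GENCODE 29) were tested with edgeR 4.0.16 in R 4.3.3 (glmQLFit, glmQLFTest) across all pairs, with library totals as offsets, the library as a block and no scaling between arms. The SE is the log2 ratio over the square root of F. limma 3.58.1 (pseudocount 1) and DESeq2 1.42.0 were alternatives. The fits were also run on counts simulated with a fixed dispersion and drawn independently for each arm, a simpler setting than these data. That run does not show how the fits behave on these data. Other values used Python 3.11.15, pandas 2.3.3, numpy 2.4.6 and scipy 1.17.1, and figures matplotlib 3.10.9. The cultures are of 1 line, so p-values rest on the spread between these libraries, which may be technical. edgeR estimates that spread partly from all pairs tested, so the SE and p-value of a pair do not reflect its own spread alone. For the 2 hairpins compared as neighbours the SE was 0.22, beside an SD of 0.14 of their log2 FPKM ratio over the libraries. The comparison of spread with miR-21-5p left out was added after the data were seen.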

Additional observations from a re-analysis of the deposited data

How the results depend on the processing

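Of 142 values recomputed under an alternative, 120 kept their direction and side of the threshold, or moved by less than the spread or factor that applied. The ratio of the members reversed between 3p arms (0.164) and was 4.55 between 5p arms, against 3.99 between hairpins. The arms are different molecules, so these are other ratios rather than that of the hairpins recomputed, and why the 3p arms reversed was not tested. Between hairpins the ratio ran from 3.79 to 4.17 with 1 replicate left out. The comparison of neighbours lost its call for the members without replicate 2 (edgeR adjusted p = 0.0558), with the log2 ratio from 2.00 to 2.14 over the fits that left out 1 replicate, and the cause was not tested. Its edgeR, limma or DESeq2 adjusted p under the other alternatives ran from 7.09e-18 (DESeq2) to 0.00311. Neighbouring pairs called fell to 35 of 55 with starts within 1 kb, where fewer pairs were tested. Arm preference of both hairpins was called toward 5p by edgeR, limma and DESeq2 and without each replicate, and called hairpins ranged from 141 to 168 of 195, with 124 of 148 called at 10 or more counts of both arms and 147 of 182 without names of several rows. The rank of hsa-mir-425 was 23 in CPM, 24 after the median of ratios and 24 to 28 with 1 replicate left out, against 28. Coefficients of variation within 1.5-fold were taken as kept. That of miR-191-5p was 17.5% by the median of ratios and 15.2% by TMM, and 8.03% to 49.6% with 1 replicate left out. That of miR-425-5p was 10.8%, 9.38% and, without miR-21-5p in the totals, 18.3%, and 0.832% to 37.6% with 1 replicate left out. The reference miRNAs had a median of 22.9% by the median of ratios and 20.6% by TMM, and 14.2% to 50.0% with 1 replicate left out. The 163 miRNAs had a median of 8.46% to 37.4% with 1 replicate left out. The low ends of these coefficients came without replicate 1. On the deposited scale miR-425-5p was on the other side of the median with a minimum of 100 counts (25.2%) and without replicate 3. Counting error of miR-191-3p, the lowest arm, was 2.93% against an observed 17.9%. Some arms compared had few counts, such as 9 in a library for hsa-mir-548j.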
